A study of Mus musculus with 6 samples.

Results

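Histone genes fall into a replication-dependent set and a variant set, and their RNA was compared between microglia cultures with and without Cre. The 78 genes described here are all protein coding genes (GENCODE release M21, GRCm38) whose symbols begin with Hist1h, Hist2h, Hist3h, Hist4h, H2af or H3f, out of 55487 genes in the count tables. Of these, 67 are clustered histone genes, with 54 in the Hist1h cluster on chromosome 13, 10 in the Hist2h cluster on chromosome 3, 2 in the Hist3h cluster on chromosome 11 and the single Hist4h gene on chromosome 6. The other 11 encode variants, 9 of the H2A family and the 2 genes of H3.3.

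Primary cortical microglia were grown from pups of postnatal days 1 to 3 that carried CAG::CreERT2; Nr1d1 fl/fl (Cre+) or Nr1d1 fl/fl without Cre (Cre-). Each group had 3 cultures, with 1 library per culture. Nr1d1 encodes the nuclear receptor REV-ERBα, and CreERT2 is a recombinase that removes the loxP-flanked part of Nr1d1 once it has bound 4-hydroxytamoxifen (4-OHT). All 6 cultures received 4-OHT at 1.5 μM, for 2 days by the sample labels and for a shorter time by the methods of the paper. The CAG promoter is active in most cell types, so deletion was not restricted to microglia, and the source data of the paper describe these cultures as male. Of 15 microglia markers, 14 passed the expression filter. The 15 summed to 10141 to 10600 CPM (counts per 1000000 counts on genes, after TMM scaling) in Cre- and 10030 to 10399 CPM in Cre+ libraries. Whether the cells differ from other macrophages was not tested.

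Most replication-dependent histone mRNAs are made during S phase, when new chromatin needs histones, and end in a conserved stem-loop instead of a poly(A) tail. The stem-loop is bound by SLBP, which directs processing, export and translation of these mRNAs. Variant histone mRNAs are mostly spliced and polyadenylated and made through the whole cell cycle. Some clustered histone genes can also give polyadenylated mRNA when transcription runs past the stem-loop, in particular in cells that have stopped dividing. The libraries were made with a kit that primes cDNA from poly(A), so the values below count polyadenylated histone RNA, and clustered histone mRNA that ends at the stem-loop is expected to be captured poorly.

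The stem-loop itself is shown for 6 genes because it marks where the replication-dependent transcript normally ends and where a polyadenylated one must run on. Sequences are from GRCm38, read 5′ to 3′ on the strand of the gene, with the stem-loop in capitals and 5 flanking bases on each side in lower case.
Hist1h1c, chr13:23739512-23739527, plus strand: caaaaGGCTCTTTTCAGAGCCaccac
Hist1h2bg, chr13:23571843-23571858, plus strand: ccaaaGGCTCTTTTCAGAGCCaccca
Hist1h3e, chr13:23561903-23561918, minus strand: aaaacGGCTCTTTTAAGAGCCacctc
Hist1h4h, chr13:23531458-23531473, plus strand: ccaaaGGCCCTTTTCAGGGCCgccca
Hist1h4i, chr13:22040966-22040981, minus strand: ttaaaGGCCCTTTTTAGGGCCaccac
H2afx, chr9:44335240-44335255, plus strand: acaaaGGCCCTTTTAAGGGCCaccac
All 6 lie in the annotated 3′UTR, between 24 bases (Hist1h1c) and 46 bases (H2afx) past the stop codon. Pairing of the 2 arms of the stem and part of the run of T in the loop were required by the search described below. The arms differ between the H4 genes and most others, and the loop of all 6 begins with a run of T.

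Annotated transcripts were searched on their own strand for a first arm GGNNCT, a 4-base loop TNTN and a second arm AGNNCC, with the 6-base arms complementary to each other. It was present in 46 of 67 clustered genes and in 1 of 11 variant genes, H2afx, whose H2A.X is known to be made both from stem-loop and from polyadenylated mRNA. Across all protein coding genes, 55 of 21901 (0.251%) held it, so 8 holders were outside the histone genes listed here. The form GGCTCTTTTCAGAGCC occurred in 26 genes of the H1, H2A, H2B and H3 types, and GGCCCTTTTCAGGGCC in 7 genes, all of them H4 genes. A gene without the letters is often one whose annotation stops at the stop codon, so absence says nothing of the mRNA.

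Where the annotated transcript ends was recorded for each clustered gene. In 23 genes it runs on for 100 bases or more past the stem-loop, and in 23 genes it stops within 100 bases of it. Of the 21 genes without the stem-loop, 4 have a 3′UTR of 100 bases or more (Hist1h2bc, Hist1h2bq, Hist1h2br and Hist2h2be), and 17 have a shorter one or none. A poly(A) signal (AATAAA or ATTAAA) lay in the last 40 bases of an annotated transcript in 17 clustered and 6 variant genes.

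Levels per length followed these ends as a description over the 6 libraries. The median was 0.783 CPM per kb in the 4 genes with a long 3′UTR and no stem-loop, 0.681 CPM per kb in those running past the stem-loop, 0.117 CPM per kb in those stopping near it, and 0.0364 CPM per kb in the 17 with neither. All but 2 of the 15 clustered genes that passed the expression filter belonged to the first 2 kinds, the exceptions being Hist1h4h and Hist1h2bj. The filter is on CPM without division by length, so a longer annotated gene can pass at a lower level per length. Reads wholly past the annotated end of a gene are not counted for it. The part of annotated length in this pattern was not tested. How reads that match several copies were counted is not given in the sources used here, and 24 clustered genes share 50% or more of their 150-base windows with another annotated gene, overlapping annotations included. These 24 had a median of 0.0411 CPM per kb and none passed the filter, against 0.336 CPM per kb in the other 43, and the part of shared reads in this order was not tested.

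**Figure D1:**
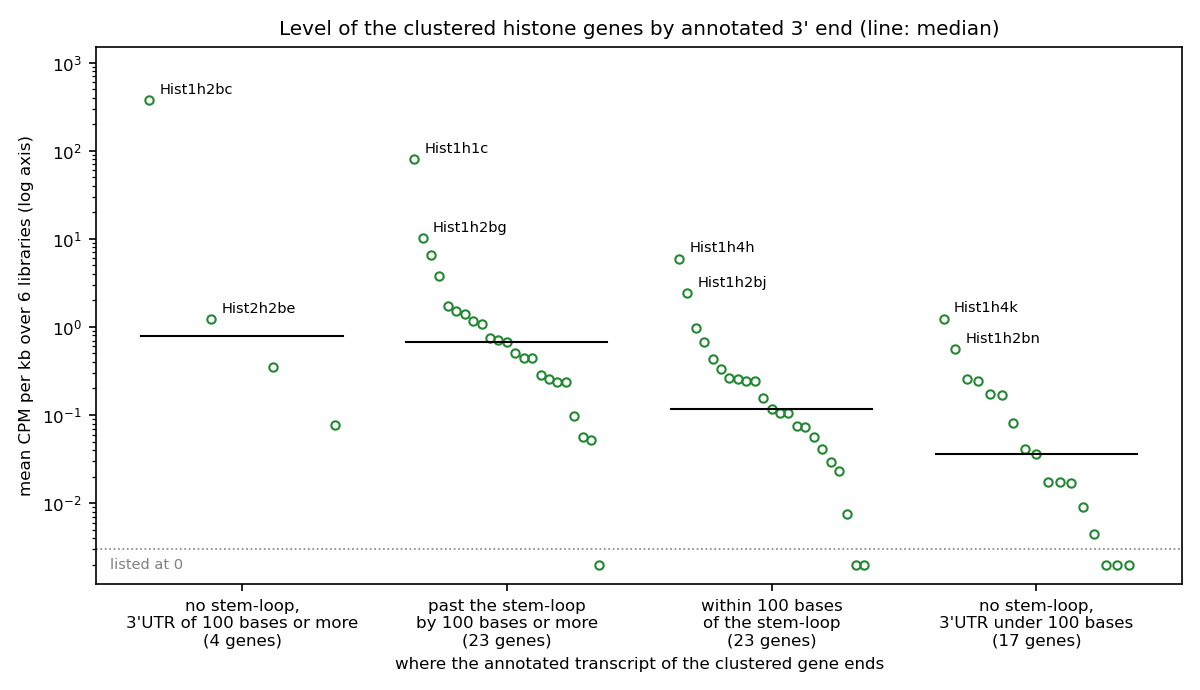
Mean CPM per kb over the 6 libraries (log axis) of each of the 67 clustered histone genes, grouped by where the annotated transcript ends, with the median of each kind as a line and genes without counts below the dotted line. Hist1h2bc at 374 and Hist1h1c at 80.0 CPM per kb stand far above all others.

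Transcripts of 2 genes made up nearly the whole clustered signal. Hist1h2bc, an H2B gene, held 72.0% of all counts on clustered genes, and Hist1h1c, which encodes the linker histone H1.2, held 20.7%. The share of Hist1h2bc ran from 70.6% to 74.3% and that of Hist1h1c from 18.2% to 21.9% over the 6 libraries, so these 2 genes led in each library. Hist1h2bc (chr13:23684199-23692908, plus strand) is annotated with 2 exons. The first ends 9 bases after the stop codon, before any stem-loop, and is joined across an intron of 7554 bases to a second exon of 733 bases. Hist1h1c (chr13:23738808-23740367, plus strand) has a single exon that runs 840 bases past the stem-loop shown above and ends with a poly(A) signal.

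Among all 78 genes, the order of mean levels per length over the 6 libraries was Hist1h2bc (374 ± 17.4 CPM per kb, SD, n = 6), H2afz (258 ± 13.6), H3f3b (254 ± 8.04), Hist1h1c (80.0 ± 10.0), H3f3a (46.0 ± 2.52), H2afj (26.0 ± 2.93), H2afx (12.4 ± 1.29) and Hist1h2bg (10.1 ± 1.16). H2afz and H3f3b did not differ beyond their spread. The others in this order were separated from their neighbours by more than the SDs of either. Levels per length here divide by all annotated exonic bases of a gene, 1776 for H2afz and 2976 for H3f3b. Their longest annotated transcripts are shorter, at 1069 and 2514 bases. The order and the ratios between genes therefore depend on the length used, and the SDs cover only the spread between libraries. The 2 genes of H3.3 together stood 64.7 times above all 12 clustered H3 genes in summed CPM per kb. That ratio holds for polyadenylated RNA only, since clustered mRNA that ends at the stem-loop is expected to be captured poorly. The 12 also include Hist2h3b and Hist2h3c1, listed at 0. H3f3b, which encodes the same protein as H3f3a, stood 5.52 times above it, and H2afz stood 33.1 times above H2afv, the gene of the second H2A.Z.

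At the low end, 8 genes were listed at 0 in all libraries: Hist2h2aa1, Hist2h2aa2, Hist2h2ab, Hist2h2bb, Hist2h3b, Hist2h3c1, H2afb1 and H2afb3. In 5 of the 6 clustered ones, all exonic bases are overlapped by other annotated genes at the same place, and all 150-base windows are shared with another annotated gene. Reads there fall on more than 1 annotated gene, and whether this set the 0 was not tested. A count of 0 allows up to 3 counts, or 0.0270 to 0.0343 CPM depending on the library, for counting error only. Another 28 clustered genes had 1 to 100 counts over the 6 libraries together.

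**Figure D2:**
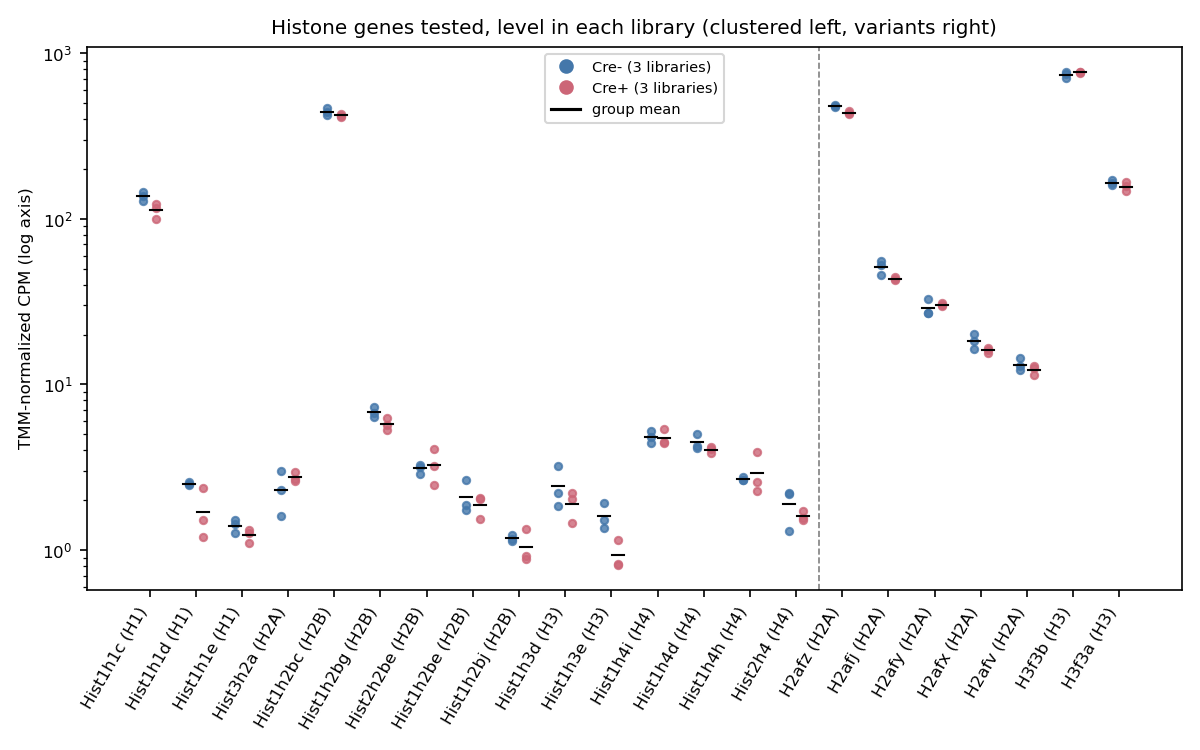
TMM-normalized CPM (log axis) of the 22 histone genes that passed the expression filter, each point a library and each line a group mean, with clustered genes left and variants right of the dashed line. Hist1h2bc, Hist1h1c and the variants lie above 10 CPM and the other clustered genes between 0.8 and 8 CPM.

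For the comparison of Cre+ with Cre- cultures, the deleted gene itself was read first. Nr1d1 was at 2.31, 1.18 and 1.62 CPM in the Cre- libraries and at 0.990, 0.933 and 1.07 CPM in the Cre+ libraries. The groups did not overlap, but the whole-gene count fell short of the threshold (log2 fold change -0.77, SE 0.25, adjusted p = 0.0945, edgeR's quasi-likelihood test), and it includes reads outside the loxP sites. Library totals were 87545868 to 110909129 counts on genes. The test covered the 11429 genes with more than 1 CPM in 4 or more libraries, and 579 of them (5.07%) had an adjusted p of at most 0.05.

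Of the 78 histone genes, 22 passed the filter (15 clustered and 7 variants) and 1 was called, Hist1h1c, against the 5.07% of all genes. Its change was small. The log2 fold change was below 0 for 17 of the 22 (12 of 15 clustered, 5 of 7 variants), against 49.4% of all genes tested. The median was -0.17 in the clustered genes and -0.11 in the variants, and 0.00 over all genes tested. The groups did not overlap for 6 of the 22, all lower in Cre+ (background 11.2% lower, 24.3% in either direction). An unadjusted p of at most 0.05 was reached by 5 of the 22, against 19.1% of all genes. Genes of 1 family are not independent, so these counts describe the members and carry no test.

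**Figure D3:**
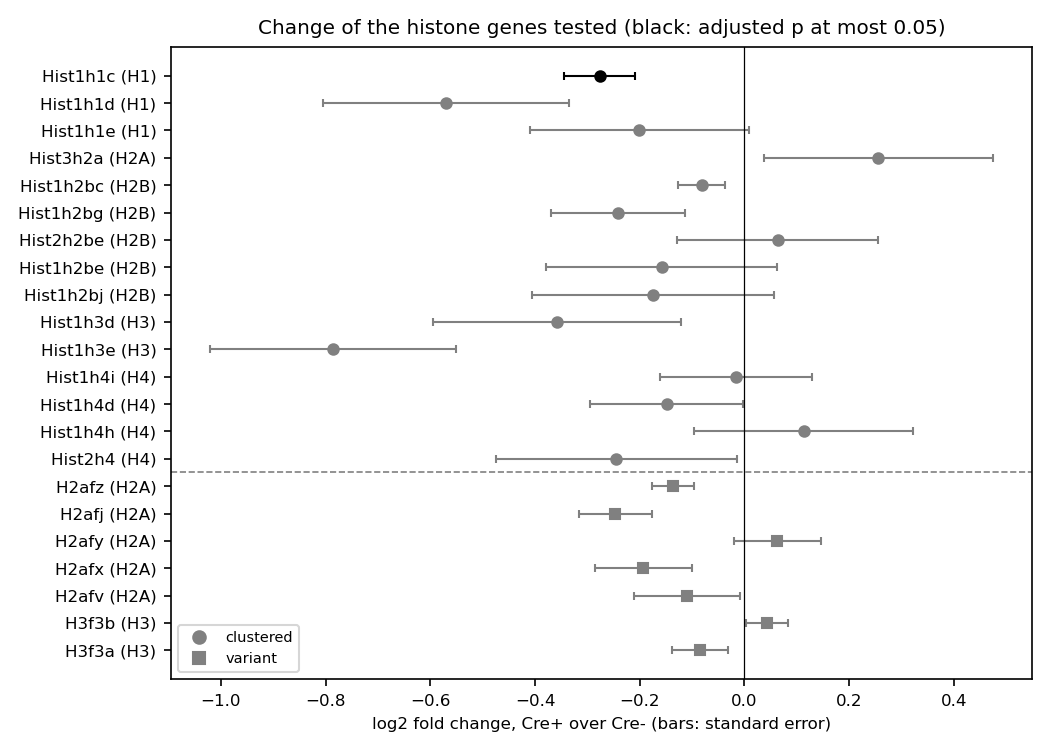
Log2 fold change of Cre+ over Cre- for the 22 histone genes tested, with standard errors as bars, circles for clustered genes and squares for variants. Only Hist1h1c, in black, passed an adjusted p of 0.05, at -0.28.

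Linker histones of the H1 type bind the DNA between nucleosomes. Hist1h1c was at 128, 137 and 145 CPM in the Cre- libraries and at 117, 122 and 100 CPM in the Cre+ libraries. Each Cre+ library lay below each Cre- library, with Cre+ replicate 3 the lowest. The fold change was -0.28 on the log2 scale (SE 0.07), so that the level fell by 17.5%, with adjusted p = 0.0276 by edgeR's quasi-likelihood test. The call was lost without Cre- replicate 2 (adjusted p = 0.0708 in edgeR), Cre- replicate 3 (0.116) or Cre+ replicate 3 (0.109), and with each of the 3 looser expression filters (0.0698 to 0.0787). The ratio of Hist1h1c to Hist1h2bc per length was 0.225, 0.229 and 0.229 in Cre- and 0.205, 0.210 and 0.181 in Cre+ libraries, which is independent of the scaling between libraries. This ratio too did not overlap between the groups.

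Hist1h1d, the gene of H1.3, was at 2.498, 2.46 and 2.56 CPM in Cre- and at 1.51, 2.37 and 1.21 CPM in Cre+ libraries. The Cre- values were close together, and Cre+ replicate 2 nearly reached them. Its log2 fold change was -0.57 (SE 0.23) and did not pass the test (adjusted p = 0.194, edgeR), with values from -0.89 without Cre+ replicate 2 to -0.38 without Cre+ replicate 3. Hist1h1e, the gene of H1.4, was at 1.27, 1.51 and 1.43 CPM in Cre- and 1.31, 1.26 and 1.10 CPM in Cre+ libraries, which overlap. Its annotated transcript shares part of its exons with Hist1h2be on the same strand, so reads there could be given to either gene.

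Among the H2B genes, the abundant Hist1h2bc was at 422, 442 and 467 CPM in Cre- and at 420, 431 and 410 CPM in Cre+ libraries. The groups overlapped, with a log2 fold change of -0.08 (SE 0.05, adjusted p = 0.355, edgeR). Hist1h2bg, the next H2B gene in level, was at 7.28, 6.33 and 6.74 CPM in Cre- and at 5.69, 5.28 and 6.31 CPM in Cre+ libraries, without overlap by a narrow margin. It did not pass the test (log2 fold change -0.24, SE 0.13, adjusted p = 0.328, edgeR), and it shares 39.0% of its windows with Hist1h2bc and other H2B genes. Hist1h2be, Hist1h2bj and Hist2h2be had log2 fold changes of -0.16, -0.17 and 0.06, all smaller than their standard errors of 0.22, 0.23 and 0.19.

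Clustered H3 genes gave the lowest fold change of the 22. Hist1h3e was at 1.92, 1.36 and 1.52 CPM in Cre- and at 0.810, 0.827 and 1.16 CPM in Cre+ libraries. Each Cre+ value was below each Cre- value, at levels close to the filter. The log2 fold change was -0.79 (SE 0.23), with adjusted p = 0.0695 (edgeR), which did not pass, and it stayed between -0.97 and -0.64 when each library was left out. Hist1h3d was at 1.84, 2.22 and 3.22 CPM in Cre- and at 2.02, 1.45 and 2.22 CPM in Cre+ libraries, which overlap. Its log2 fold change of -0.36 (SE 0.24) rests on Cre- replicate 3, without which it was -0.10. The proteins of these clustered genes are the canonical H3 that is placed behind the replication fork.

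H4 has no variants among these genes, and its clustered genes showed small differences. Hist1h4i was at 5.21, 4.80 and 4.41 CPM in Cre- and 4.51, 5.39 and 4.41 CPM in Cre+ libraries, and Hist1h4d at 4.27, 4.13 and 5.00 CPM and 4.09, 3.84 and 4.21 CPM. Both overlapped, with log2 fold changes of -0.02 (SE 0.14) and -0.15 (SE 0.15). Hist1h4h, whose annotated transcript ends 46 bases past its stem-loop, had a log2 fold change of 0.11 (SE 0.21), with Cre+ replicate 2 at 3.91 CPM and the other 5 libraries at 2.26 to 2.76 CPM. Hist2h4 had -0.25 (SE 0.23).

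Clustered H2A genes were scarce throughout. Hist3h2a was the only one to pass the filter, at 2.32, 1.60 and 2.99 CPM in Cre- and 2.61, 2.69 and 2.97 CPM in Cre+ libraries (log2 fold change 0.26, SE 0.22). The value ran from 0.049 without Cre- replicate 2 to 0.49 without Cre- replicate 3. Its exons overlap those of Trim17 on the same strand, a gene at 0.187 CPM on average. Hist1h2ae lay just below the filter at 1.25, 0.821 and 1.01 CPM in Cre- and 0.810, 0.933 and 1.09 CPM in Cre+ libraries, and Hist1h2bj lay just above it, with 4 libraries over 1 CPM.

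Below the filter, 48 histone genes had counts. For 7 of them the Cre+ libraries all lay below the Cre- libraries and for 1 all lay above. Over all 32545 genes that had counts and were not tested, 14.0% lay lower and 1.34% higher in this way, so the 7 of 48 are near that background. The median was 51.5 counts over the 6 libraries for these histone genes and 15 for all such genes. The 3 with the most counts among these were picked after their values were seen. Hist1h4c was at 0.667, 0.778 and 0.935 CPM in Cre- and 0.522, 0.456 and 0.294 CPM in Cre+ libraries. Hist1h4k was at 0.554, 0.416 and 0.539 CPM against 0.243, 0.244 and 0.324 CPM. Hist1h1b, the gene of H1.5, went the other way, at 0.0904, 0.149 and 0.0770 CPM in Cre- and 0.162, 0.297 and 0.304 CPM in Cre+ libraries. In a fit of genes above 0.1 CPM in 3 libraries, these 3 did not pass (adjusted p = 0.156, 0.226 and 0.219 in edgeR).

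The H2A.Z variant marks promoters and is put in place by dedicated exchange complexes. Its main gene, H2afz (chr3:137864487-137866922, plus strand), was at 479, 473 and 484 CPM in Cre- and at 428, 434 and 449 CPM in Cre+ libraries. The groups were separated by more than the range within either. The log2 fold change was nevertheless small, -0.14 (SE 0.04), and just missed the threshold (adjusted p = 0.0628, edgeR), whereas limma's voomWithQualityWeights (0.0432) and DESeq2 (0.0163) called it. None of the 6 fits without 1 library called it (adjusted p = 0.0772 to 0.183 in edgeR), nor did the looser filters (0.232 to 0.610), and without a filter the log2 fold change was -0.058. A stretch of H2afz sequence is also present in Tmcc1, which shares 520 windows with it and was at 19.3 CPM on average. H2afv, the second H2A.Z gene, was at 12.9, 12.2 and 14.4 CPM in Cre- and at 12.5, 12.9 and 11.4 CPM in Cre+ libraries, which overlap (log2 fold change -0.11, SE 0.10).

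H2afj, which encodes H2A.J, a variant known to accumulate in senescent cells, was at 46.1, 53.0 and 55.5 CPM in Cre- and at 42.7, 43.2 and 44.8 CPM in Cre+ libraries. The Cre+ values were close together and all below the Cre- values, of which replicate 1 was the lowest. The log2 fold change was -0.25 (SE 0.07, adjusted p = 0.0543, edgeR), and the gene was called without Cre- replicate 1 (-0.33, adjusted p = 0.00949), with library totals (0.0493) and by DESeq2 (0.0147). It was not called when any of the other 5 libraries was left out (0.109 to 0.207, edgeR) or with the looser filters (0.138 to 0.244). H2afx, whose protein is phosphorylated at DNA breaks, was at 16.3, 18.4 and 20.3 CPM in Cre- and at 16.1, 16.6 and 15.6 CPM in Cre+ libraries, with overlap (log2 fold change -0.19, SE 0.09, adjusted p = 0.274, edgeR). Both genes lie opposite a short annotated RNA on the other strand. The kit does not mark strand, and those RNAs were listed at 0.

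H3.3 replaces H3 outside S phase. H3f3b was at 710, 751 and 768 CPM in Cre- and at 759, 773 and 773 CPM in Cre+ libraries, with a log2 fold change of 0.04 (SE 0.04). H3f3a was at 164, 160 and 172 CPM in Cre- and at 166, 158 and 146 CPM in Cre+ libraries, with -0.09 (SE 0.05). Of its windows, 22.8% are shared with 5 other annotated genes, most of them with Gm17275 on the other strand (495 of 613 windows). Neither H3f3b nor H3f3a passed the test (adjusted p = 0.625 and 0.425, edgeR). The ratio of H3f3b to H3f3a per length was 5.10, 5.51 and 5.25 in Cre- and 5.39, 5.77 and 6.23 in Cre+ libraries, which overlap.

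MacroH2A carries a large extra domain and is associated with silent chromatin. Its gene H2afy was at 27, 26.8 and 33.0 CPM in Cre- and at 30.2, 31.1 and 29.6 CPM in Cre+ libraries, with overlap (log2 fold change 0.06, SE 0.08). H2afy2, the second macroH2A gene, stayed below the filter at 0.373 to 0.769 CPM. The 3 X-linked H2afb genes, known from the testis, had 2 counts in all, both in H2afb2.

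Summed over a class, the clustered genes reached 597, 624 and 659 CPM in Cre- and 577, 597 and 552 CPM in Cre+ libraries, a ratio of 0.918. The groups were barely apart, since the lowest Cre- sum was 597.18 and the highest Cre+ sum 596.95. Without Hist1h2bc and Hist1h1c the other 65 clustered genes summed to 47.5, 44.9 and 47.8 CPM in Cre- libraries. They summed to 40.4, 43.7 and 41.6 CPM in Cre+ libraries, again without overlap and with a ratio of 0.896. Of these 65 genes, 52 were below the filter, with a summed ratio of 0.854. The 52 summed to 9.48 CPM in Cre- and 8.10 CPM in Cre+ on average, out of 46.7 and 41.9 CPM for the 65. The 52 include 10 of the 12 H3 genes and 13 of the 18 H2B genes. Below the filter, genes in general lay lower in Cre+ more often than higher (14.0% against 1.34%). The part of this background in the sums was not tested. Within types the ratio was 0.827 for H1, 0.758 for H3, 0.905 for H4 and 0.948 for H2B. It was 1.00 for H2A (0.994 with DESeq2's size factors). Over the 6 libraries Hist3h2a supplied 2.53 of the 4.75 CPM of the H2A sum. Its own ratio was 1.20, with overlap between the groups. The remaining H2A genes, all below the filter, were therefore lower in sum in Cre+, and the ratio of 1.00 does not describe them. The H1 and H3 sums did not overlap between the groups and the other 3 did, but the sums of H1 and H2B rest mostly on 1 gene each. Without Hist1h1c the H1 genes just overlapped (3.93 to 4.31 CPM in Cre- and 2.64 to 3.94 CPM in Cre+ libraries). With library totals they were narrowly apart (lowest Cre- 3.975 and highest Cre+ 3.970 CPM), as they were with DESeq2's size factors. Without Hist1h2bc the H2B genes did not overlap (15.9 to 16.3 CPM against 14.7 to 15.2 CPM). In bulk RNA, fewer cells that make a transcript and less of it per cell cannot be told apart.

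The variant genes summed to 1456, 1496 and 1548 CPM in Cre- and 1454, 1469 and 1470 CPM in Cre+ libraries, a ratio of 0.976 with overlap. Within them the H2A.Z genes had a ratio of 0.913 without overlap, and the H3.3 genes a ratio of 1.02 with overlap. With library totals and DESeq2's size factors, the clustered ratio was 0.922 and 0.912 and the variant ratio 0.980 and 0.970.

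**Figure D4:**
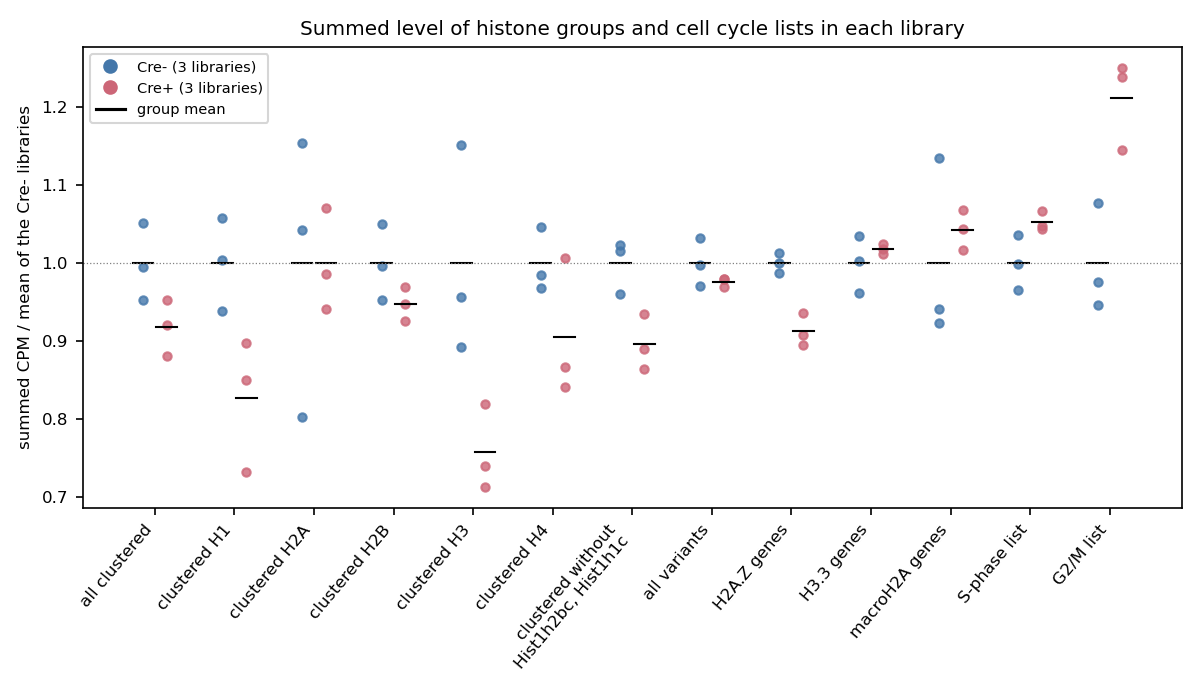
Summed CPM of histone groups and of 2 cell cycle lists in each library, divided by the mean of the 3 Cre- libraries, with group means as lines. Clustered H1 (0.827) and H3 (0.758) lie lowest in Cre+, the variants near 1 and the G2/M list above it (1.21). The H1 sum rests mostly on Hist1h1c and the H3 sum on Hist1h3d and Hist1h3e.

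Genes of the cell cycle were read beside the clustered histones, whose mRNA normally follows S phase. Of 28 genes of DNA replication, 25 were tested and 1 was called, near the 5.07% of all genes. It was Rrm2, a subunit of ribonucleotide reductase. Rrm2 was higher in Cre+ (log2 fold change 0.79, SE 0.20, adjusted p = 0.0345, edgeR), at 2.53, 3.49 and 2.696 CPM in Cre- and 4.29, 4.10 and 6.79 CPM in Cre+ libraries. Tk1 and Lig1 had log2 fold changes of 0.73 and 0.34 and did not pass. The median of the list was 0.05.

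Of 18 genes of G2 and M phase, 11 were tested and 1 was called, which is near the 5.07% of all genes. It was Top2a, the DNA topoisomerase of condensing chromosomes. Top2a was at 3.10, 3.61 and 2.46 CPM in Cre- and 5.24, 5.52 and 5.22 CPM in Cre+ libraries (log2 fold change 0.79, SE 0.16, adjusted p = 0.00956, edgeR). Nusap1 (0.82) and Ccnb2 (0.89) did not pass, and the list median was 0.25. Summed, this list was at 43.8 to 49.8 CPM in Cre- and 53.0 to 57.8 CPM in Cre+ libraries. The replication list was at 403 to 433 CPM in Cre- and 436 to 446 CPM in Cre+, which overlap with DESeq2's size factors. Within Cre-, replicate 3 had the highest sums of the G2/M list and of the clustered H1, H2A, H2B and H3 genes. The same library had the lowest sum of the replication list (403 CPM, against 417 and 433 CPM). The clustered H4 sum was highest in replicate 1. A link between these sums was not tested.

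Of 18 factors that process histone mRNA, 17 were tested and 0 were called by edgeR, which is near the background of 5.07%, with a median log2 fold change of 0.02. Slbp, the stem-loop binding protein, was at 41.6, 44.1 and 47.8 CPM in Cre- and 42.0, 44.3 and 44.5 CPM in Cre+ libraries (log2 fold change -0.03, SE 0.07). The 3 with the smallest p were Cpsf3, the nuclease that cuts at the 3′ end (0.14), Ncbp2 of the cap-binding complex (0.20) and Upf1 (0.17), which acts in the decay of histone mRNA.

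Among histone chaperones and exchange factors, 24 of 27 were tested and 2 were called, both higher in Cre+ against 2.5% of all genes in that direction. Asf1b, a carrier of H3 and H4 in dividing cells, was at 7.72, 6.11 and 6.52 CPM in Cre- and at 9.30, 9.25 and 9.14 CPM in Cre+ libraries (log2 fold change 0.44, SE 0.12, adjusted p = 0.0479, edgeR). Atrx, which deposits H3.3 in heterochromatin together with Daxx, was at 50.2, 43.7 and 40.02 CPM and at 56.2, 52.7 and 53.5 CPM (log2 fold change 0.27, SE 0.08, adjusted p = 0.0489, edgeR). Chaf1b, a subunit of the chromatin assembly factor CAF-1, had a log2 fold change of -0.36 (SE 0.11) and did not pass (adjusted p = 0.0629, edgeR). Of 6 other histone genes outside the naming rule, H1f0 (-0.06) and Cenpa (0.13) were tested and not called.

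Markers of other cells were read beside the sums of clustered genes. The 6 neuronal markers summed to 2.39 to 3.26 CPM in Cre- and 1.92 to 2.07 CPM in Cre+ libraries, the 7 fibroblast and mural markers to 1.47 to 2.61 CPM and 0.911 to 1.09 CPM, and the 5 endothelial markers to 1.50 to 2.37 CPM and 1.19 to 1.42 CPM. All 3 sums were low and did not overlap between the groups, and of their 18 genes 1 passed the filter, below which genes in general lay lower in Cre+ more often than higher (14.0% against 1.34%). The 8 astrocyte markers summed to 43.6 to 47.5 CPM and 42.2 to 48.0 CPM, and the 9 oligodendrocyte markers to 82.5 to 91.5 CPM and 79.9 to 84.9 CPM, both with overlap. No marker of these lists was at 0 in all libraries. Their part in the lower clustered sums was not tested. Of the 15 microglia markers, 14 were tested and 2 were called against 5.07% of all genes, C1qc (log2 fold change -0.32) and Itgam (0.18).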

How the data were processed

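RNA-seq was analysed from 6 cultures, 3 Cre- and 3 Cre+, with 1 library each. Counts, as deposited by the authors, are reads per Ensembl gene, made with STAR and featureCounts on GRCm38. CPM values, as deposited, are these counts over the library total, and FPKM values, as deposited, are also divided by gene length. Both were read only to check units. The treatment of multi-mapping reads and of strand is not given in the sources used here, and the versions named in the sources differ. The submitters' processing notes name STAR 2.7.9a and featureCounts 2.0.3.

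After removal of 356 rRNA and Mt_rRNA genes, those with more than 1 CPM in 4 or more libraries entered the quasi-likelihood test of edgeR 4.0.16 (TMM, no covariates, R 4.3.3), with Benjamini-Hochberg adjustment over all 11429. SEs are the log2 fold change over the square root of F. The coefficient of variation at the common dispersion was 10.0%. On simulated data for this comparison with 11429 genes, 163 of 200 changed genes and 7 others were called. All genes were simulated with the same dispersion (0.01), and the changes were larger than those of Hist1h1c, H2afj and H2afz. These counts therefore give no rate of detection for changes as small as theirs. Stem-loops, shared 150-base windows and overlaps came from GENCODE M21 transcripts and GRCm38, and tables from python 3.11.15 and pandas 2.3.3.

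The histone genes and lists were chosen with earlier results of these data known. Named were all variants, called genes, the 2 most abundant clustered genes of each type, up to 5 others without overlap, those nearest the filter, and up to 3 of each list by p. Other tested histone genes were named to account for all members. Alternatives were other scalings, filters and tests, a replicate block and leaving out each library. Labels do not say that cultures came from separate litters, so p-values measure the spread between these cultures.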

Additional observations from a re-analysis of the deposited data

How the results depend on the processing

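Leaving out each library in turn gave 317 to 448 called genes over all genes tested and 0 to 2 called histone genes, against 579 and 1. With DESeq2 1.42.0 890 genes were called, and 1528 without an expression filter, where more genes were tested. Called histone genes numbered 2 with library totals (Hist1h1c and H2afj), 2 with voomWithQualityWeights (Hist1h1c and H2afz) and 3 with DESeq2 (all of these). In edgeR they numbered 0 without a filter, 0 with filterByExpr and 0 above 0.1 CPM in 3 libraries, where 10, 8 and 7 had an unadjusted p of at most 0.05. They also numbered 0 without Cre- replicate 2, Cre- replicate 3 or Cre+ replicate 3, with 5, 6 and 5 such genes. The looser filters shifted the log2 fold changes of all genes upward by 0.04 to 0.08.

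Of the 22 histone genes tested, 18 kept their direction in all 14 alternatives. The exceptions were small changes that did not pass. Leaving out 1 library gave -0.28 to 0.049 for Hist1h2be, -0.16 to 0.27 for Hist1h4h, -0.11 to 0.038 for Hist1h4i and -0.13 to 0.23 for Hist2h2be. Hist1h4i was also above 0 without a filter (0.062), with filterByExpr (0.027) and above 0.1 CPM in 3 libraries (0.030). The medians of the clustered and variant genes stayed below 0 throughout and moved by less than the spread between libraries, but the variant median of -0.11 was -0.058 without Cre- replicate 3 and -0.060 without Cre+ replicate 3. The scalings of the summed levels were chosen after seeing the data.

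With the replicate number as a block, 430 genes and 1 histone gene (Hist1h1c, adjusted p = 0.0442 in edgeR) were called. Same-numbered libraries did not deviate together (correlations of 0.0067, -0.034 and -0.056), and not every library correlated best with its own number, so the numbers were not taken as pairs. Genes under 1 CPM and genes with shared sequence limit what these libraries show of the clustered genes.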
